A study of Homo sapiens with 17 samples.

Results

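The genes described here are 10 members of the tubulin family: the alpha tubulins TUBA1A, TUBA1B, TUBA1C and TUBA4A, the beta tubulins TUBB, TUBB2A, TUBB3, TUBB4B and TUBB6, and the gamma tubulin TUBG1. They were chosen as a list of symbols, with earlier results of these data known, and the beta gene TUBB2B and the gamma gene TUBG2, which rose in P4 against vehicle control, are not in the list. Gene identifiers of the count table were matched to GENCODE names, and all 10 were found among the 60662 genes listed. The table holds 63 tubulin loci in all, of which 40 are pseudogenes. RNA was sequenced from Ishikawa cells, a human endometrial adenocarcinoma line used to model the epithelium of the uterus, grown in medium with charcoal-stripped serum. The 11 cultures of known treatment were 3 untreated controls, 3 vehicle controls labelled Vehicle Nap EtOH with 70% ethanol, 2 cultures labelled Vehicle Nap and 3 labelled Vehicle Nap P4 that received Nap and progesterone (P4), the treatments lasting 24 h. The labels do not say what Nap is. They list 0.1 and 1.0 mg/ml P4 without tying a dose to a library, whereas a legend of the study names 10 μg/ml for the sequenced P4 cultures. The labels name ethanol only for the vehicle control. Taken alone, they leave effects of P4 and of ethanol not told apart in P4 against vehicle control. By the labels, the Nap cultures differ from P4 by progesterone alone. The study, however, uses ethanol as the vehicle control for its P4 treatments. Were P4 given in ethanol, it is P4 against Nap that would mix the effects. Whether the P4 cultures received ethanol is not stated, so neither reference can be taken as free of this doubt. A further 6 cultures given recombinant PSAT1 have titles that contradict their column names about which of them also received P4, and entered no comparison.

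Microtubules are hollow polymers of paired alpha and beta tubulin chains that carry cargo, shape cilia and build the mitotic spindle, and gamma tubulin in a ring complex starts new ones at centrosomes. Human cells hold several genes, called isotypes, for each chain, of which some are used in nearly all cells and others mainly in neurons or ciliated cells. The amount of alpha and beta tubulin mRNA is held in check by autoregulation. When free tubulin is plentiful, TTC5 binds the opening residues of newly made alpha or beta tubulin on the ribosome, and SCAPER and the CCR4-NOT deadenylase then bring about decay of that mRNA.

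The opening of each coding sequence is shown because in alpha and beta tubulins it is the stretch whose peptide TTC5 reads. The 30 bases below were read from GENCODE 29 transcripts, without introns, and the capitals mark the first 12 bases. TUBA1A, TUBA1B and TUBA1C were identical over all 30 bases. The first coding base lay at position 49131300 of chromosome 12 for TUBA1B, at 219253858 of chromosome 2 for TUBA4A and at 30720507 of chromosome 6 for TUBB (GRCh38).
TUBA1B: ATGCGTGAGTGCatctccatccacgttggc
TUBA4A: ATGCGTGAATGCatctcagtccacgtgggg
TUBB: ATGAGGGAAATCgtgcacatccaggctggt
TUBB4B: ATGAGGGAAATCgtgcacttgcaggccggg
TUBB6: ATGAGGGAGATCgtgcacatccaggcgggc
TUBB2A: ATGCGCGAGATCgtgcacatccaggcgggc
TUBB3: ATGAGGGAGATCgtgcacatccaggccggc
TUBB4A: ATGCGGGAGATCgtgcacctgcaggccggc
TUBB2B: ATGCGTGAGATCgtgcacatccaggcgggc
TUBG1: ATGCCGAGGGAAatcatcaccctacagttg
TUBE1: ATGACCCAGTCGgtggtcgtacaggtcggc
TUBB4A, TUBB2B and TUBE1 lie outside the 10 genes and are shown because TUBB4A fell and the other two rose in P4 against vehicle control. Against TUBB, the capitals of TUBB4B differed at 0 bases, those of TUBB3 and TUBB6 at 1 each, those of TUBB4A at 2, those of TUBB2A and TUBB2B at 3 each, and those of TUBG1 at 8. These counts are of bases, and a changed base need not change the residue that TTC5 meets, so nothing about autoregulation is read from them.

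TUBA1B (ENSG00000123416.15) lies at chr12:49127782-49131397 and TUBA1A (ENSG00000167552.14) at chr12:49184796-49189324, both on the minus strand of GRCh38. TUBA1C (ENSG00000167553.15), at chr12:49188736-49274603 on the plus strand, overlaps the start of TUBA1A. An antisense gene, AC011603.2, shares 1161 windows of 75 bases, the read length used, with TUBA1B, and another, AL662797.1, shares 465 with TUBB. The strand setting of the counting is not known, so reads of these pairs may not be told apart. As counted, AC011603.2 had 9 to 46 reads and AL662797.1 had 0 to 6 in any labelled culture. TUBB (ENSG00000196230.13) lies at chr6:30720201-30725426 and TUBB4B (ENSG00000188229.6) at chr9:137241213-137243707. TUBB2A and TUBB2B are neighbours on chromosome 6, at chr6:3153669-3157526 and chr6:3224261-3231730. The remaining 4 of the 10 genes are TUBA4A at chr2:219249711-219278170, TUBB3 at chr16:89921392-89938761, TUBB6 at chr18:12307669-12344320 and TUBG1 at chr17:42609676-42615234.

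Total counts were between 12712177 and 19704493 in the controls, between 4999521 and 13403346 in the vehicle controls, between 11941642 and 14111838 in the Nap cultures and between 10786880 and 14095023 in the P4 cultures. Counts were scaled with TMM over all 17 libraries to normalised CPM, which state a gene's reads per fixed number of reads in the library. Epithelial markers (EPCAM, CDH1, KRT8, KRT18, KRT19, PAX8 and MUC1) were detected for 7 of 7 genes, with a summed level of 1502 to 1530 CPM in vehicle controls and 1159 to 1306 CPM in P4 cultures. Endothelial and leukocyte lists summed to at most 1.54 CPM in any labelled culture, with PECAM1, CDH5 and CD3E at 3 counts or fewer throughout. The stromal list of 5 genes, of which COL1A2 made up most, summed to 284 to 303 CPM in vehicle controls and 80.1 to 134 CPM in P4 cultures, with the defining marker DCN at 3 counts or fewer. The 6 neuronal markers, listed because TUBB3 is one, summed to 3.05 to 3.97 CPM in vehicle controls and 4.73 to 5.09 CPM in P4 cultures, with no overlap, and RBFOX3, ELAVL4 and DCX were at 3 counts or fewer. SNAP25 made up most of this sum and was higher in P4 cultures (log2 0.64, edgeR adjusted p = 0.023). GAP43 went the other way, its mean CPM being 0.108 with P4 against 0.369 with vehicle alone. The mean of SYP was nearly level (0.271 against 0.263). GAP43 and SYP were not tested, so the higher sum reflects SNAP25 rather than the list as a whole.

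In P4 against vehicle control, 9 of the 10 listed tubulin genes fell, 0 rose and TUBB2A did not pass the test. Across all 16540 genes tested, 26.5% were called lower and 26.6% higher at an edgeR adjusted p under 0.05. The P4 cultures lay entirely below the vehicle controls for 9 of the 10 genes, against 29.3% of all genes. The median log2 fold change was -0.72 over the 10 genes and -0.01 over all genes tested. TUBB and TUBB3 fell by more than 1 on the log2 scale, which 7.03% of all genes did. In RNA from whole cultures, fewer cells of a kind and less mRNA per cell cannot be told apart.

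**Figure D1:**
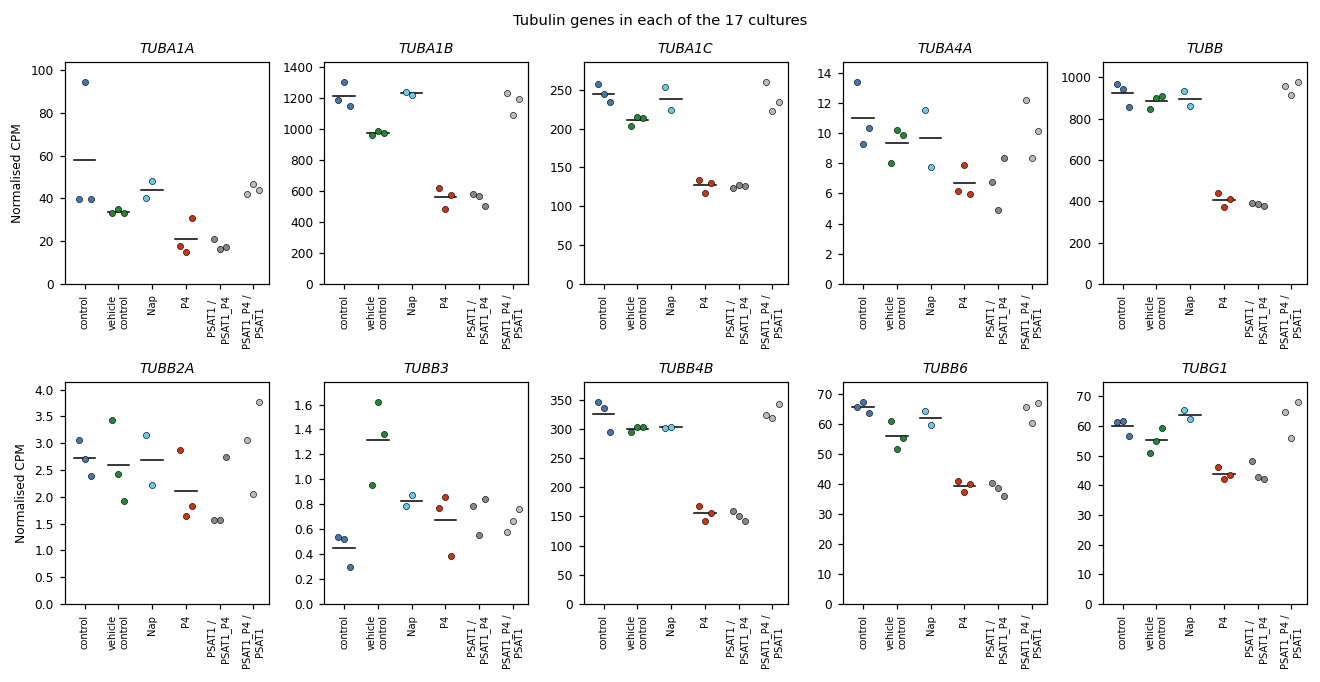
Normalised CPM (vertical axis, linear from 0) of each of the 10 tubulin genes in 17 cultures, 1 point per culture and a bar at the mean of labelled groups. Grey points are the cultures with contradictory labels, with the title before the slash and the column name after it. The 3 P4 cultures sit below all 3 vehicle controls for every gene but TUBB2A.

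Among the alpha tubulins, TUBA1B, an isotype used in nearly all cells, was measured at 962, 988 and 976 CPM in the vehicle controls and 619, 486 and 574 CPM in the P4 cultures. It stood at 1185, 1304 and 1150 CPM in the controls and 1239 and 1224 CPM in the Nap cultures, so the P4 cultures were the lowest of the 4 groups, with no overlap. The log2 fold change in P4 against vehicle control was -0.82 ± 0.08 (SE; edgeR adjusted p = 5.8e-06). TUBA1C, a close copy of it, was at 203, 216 and 214 CPM in vehicle controls and 134, 117 and 130 CPM in P4 cultures, a log2 fold change of -0.75 ± 0.07 (edgeR adjusted p = 2.9e-06). Both of these genes had all P4 cultures below every other labelled culture, as the controls and Nap cultures held TUBA1C at 224 to 257 CPM.

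TUBA1A, known for its role in developing neurons, was more scattered than the other alpha genes. Its values were 33.0, 34.9 and 33.0 CPM in the vehicle controls and 17.6, 14.7 and 30.96 CPM in the P4 cultures. Replicate 3 of P4 thus lay close to the vehicle controls, and control replicate 2, at 94.5 CPM, lay far above the other controls at 39.9 and 39.6 CPM. The log2 fold change in P4 against vehicle control was -0.68 ± 0.22 (edgeR adjusted p = 0.027). This call was lost in 6 of 13 alternative fits, namely DESeq2 (adjusted p = 0.10), the fit of all 4 groups (edgeR adjusted p = 0.26) and the fits without vehicle control replicate 2 or 3 or P4 replicate 1 or 2, and without P4 replicate 3 the log2 fold change became -1.07. TUBA4A, whose product lacks the final tyrosine that other alpha chains carry, was at 8.0, 10.2 and 9.87 CPM in vehicle controls and 6.14, 7.92 and 5.95 CPM in P4 cultures. The lowest vehicle control and the highest P4 culture were close but did not overlap, at a log2 fold change of -0.54 ± 0.16 (edgeR adjusted p = 0.013), and 4 of 13 alternatives lost the call, namely DESeq2 and the fits without vehicle control replicate 2 or 3 or P4 replicate 3.

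TUBB, the beta isotype present in nearly all cells, showed the largest fall of the 10. Its level was 844, 899.5 and 909 CPM in vehicle controls and 437, 373 and 413 CPM in P4 cultures. The controls were at 968, 944 and 856 CPM and the Nap cultures at 933 and 859.9 CPM, so every P4 culture was far below each of the other 8. The log2 fold change was -1.14 ± 0.07 (edgeR adjusted p = 1.3e-07). TUBB4B, a beta isotype of both cytoplasmic microtubules and cilia, was at 294, 304 and 303 CPM in vehicle controls and 168, 142 and 155 CPM in P4 cultures, a log2 fold change of -0.97 ± 0.07 (edgeR adjusted p = 5e-07). TUBB6, a widely expressed minor beta isotype, moved less, from 60.8, 51.6 and 55.3 CPM to 40.9, 37.2 and 39.8 CPM, at -0.52 ± 0.09 (edgeR adjusted p = 0.00028). All 3 of these calls held in every one of 13 alternative fits.

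TUBB2A and TUBB3 were the least abundant of the 10 genes. TUBB2A, a beta isotype enriched in brain, was at 3.43, 2.43 and 1.92 CPM in vehicle controls and 2.88, 1.63 and 1.83 CPM in P4 cultures. The groups overlapped, and the log2 fold change of -0.24 ± 0.29 did not pass the test (edgeR adjusted p = 0.51). Of the 75-base windows in its transcripts, 46.8% occurred in no other gene, the lowest share of the 10, and 864 windows were shared with TUBB2B, so reads from a large part of this gene could not be counted. TUBB3, the classical neuronal beta isotype, was at 0.952, 1.62 and 1.36 CPM in vehicle controls and 0.768, 0.861 and 0.381 CPM in P4 cultures, which rests on 5 to 22 and 5 to 10 reads. The log2 fold change of -1.09 ± 0.37 passed the test (edgeR adjusted p = 0.026) but lost the call in 4 of 12 alternatives, namely DESeq2 and the fits without vehicle control replicate 2 or 3 or P4 replicate 3. Of the 4827 TUBB3 windows, 1512 were shared with the gene AC092143.1, which had 0 reads in every labelled culture. Reads from that part of TUBB3 may not have been counted, so its level may be understated.

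TUBG1, which starts microtubules at the centrosome and spindle poles, changed less than the main alpha and beta genes. It was at 51.0, 54.9 and 59.5 CPM in vehicle controls and 46.2, 42.3 and 43.5 CPM in P4 cultures. The groups lay apart, at a log2 fold change of -0.35 ± 0.08 (edgeR adjusted p = 0.0033) that was called in all 13 alternatives. TUBA1B, TUBA1C, TUBB, TUBB4B, TUBB6 and TUBG1 were the members called under all 13 alternatives, and without vehicle control replicate 1, the shallowest library, 9 members were again called.

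The Nap cultures and the untreated controls served as further references for the same 3 P4 cultures. Against Nap, 8 of the 10 genes fell, compared with 24.9% of all genes, and TUBB2A and TUBB3 did not pass the test. Against control, 9 genes had enough counts to be tested and 7 fell, compared with 28.0% of all genes. TUBA1B was 2.24-fold lower in P4 than in Nap cultures (log2 fold change -1.17 ± 0.10, edgeR adjusted p = 5e-06) and 2.20-fold lower than in controls. TUBB was 2.24-fold lower than in Nap cultures (-1.16 ± 0.09, edgeR adjusted p = 2.4e-06) and 2.30-fold lower than in controls. The log2 fold change of TUBG1 was -0.57 ± 0.10 against Nap and -0.47 ± 0.10 against control.

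Exceptions again lay among the scattered or scarce genes. TUBA1A fell against Nap (log2 fold change -1.08 ± 0.26, edgeR adjusted p = 0.0074), a call lost without P4 replicate 1 (0.23), without Nap replicate 2 (0.05) and in the fit of all groups (0.1). Against control its log2 fold change of -1.48 ± 0.54 missed the threshold (edgeR adjusted p = 0.081), while it passed without control replicate 2 (-0.93, 0.017) or 3 (-1.68, 0.024), in the fit of all groups (0.021) and with DESeq2 (0.017). TUBB2A was not called against Nap (-0.37 ± 0.31, edgeR adjusted p = 0.34) or control (-0.41 ± 0.26, 0.20), but passed against control without P4 replicate 1 (-0.67, 0.045). TUBA4A fell against Nap by 0.56 on the log2 scale (edgeR adjusted p = 0.044), a call lost in 4 of 12 alternatives, namely DESeq2 (0.11), the replicate block (0.16) and the fits without P4 replicate 3 (0.15) or Nap replicate 1 (-0.26, 0.45). TUBB3 was at 0.786 and 0.872 CPM in Nap cultures and 0.538, 0.520 and 0.297 CPM in controls, ranges that both overlap with P4, and against Nap its log2 fold change was -0.36 ± 0.45 (edgeR adjusted p = 0.53). Whether the fold changes of a gene differ between the references was not tested.

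**Figure D2:**
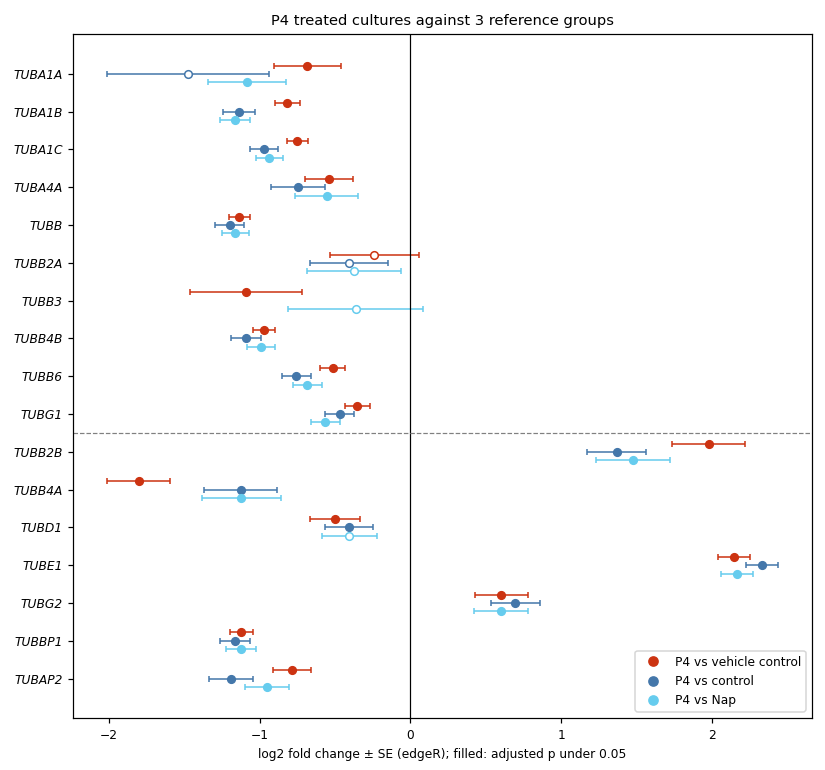
Log2 fold change with its SE (horizontal axis) of each tubulin gene in P4 cultures against vehicle control, control and Nap; filled points have an adjusted p under 0.05. All points drawn for the 10 genes above the dashed line lie below 0, while those of TUBB2B, TUBE1 and TUBG2 lie above 0. TUBB3 against control was not tested and has no point. All 3 comparisons share the P4 cultures.

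The vehicle control itself differed from the untreated control for 4 of the 10 genes. TUBA1B, TUBA1C and TUBB6 were lower (3 genes, against 10.7% of all genes) and TUBB3 was higher (1 gene, against 11.9% of all genes). TUBA1B, with the values given above, had a log2 fold change of -0.31 ± 0.08 (edgeR adjusted p = 0.0061). Those of TUBA1C and TUBB6 were -0.21 ± 0.07 and -0.23 ± 0.08 (edgeR adjusted p = 0.035 and 0.037). TUBB3 rose from 0.297 to 0.538 CPM in controls to 0.952 to 1.62 CPM in vehicle controls, 2.95-fold (log2 1.56 ± 0.37, edgeR adjusted p = 0.0044), on 4 to 10 and 5 to 22 reads. The TUBA1B call was kept in all 13 alternatives. Without vehicle control replicate 2 it was the only one left of the 4, and 2 were left without control replicate 1, without vehicle control replicate 3 and in the fit of all groups.

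Between Nap and control, 0 of the 10 genes were called by edgeR, and 0.0% of all genes. At an unadjusted p under 0.05, 0 of the 10 and 217 of 17166 genes passed, and DESeq2 called 1 gene of the whole table and 0 of the 10. TUBB was at 933 and 859.9 CPM in Nap cultures against 856 to 968 CPM in controls. The log2 fold changes of the 10 genes ranged from -0.40 for TUBA1A to 0.83 for TUBB3, with a median of -0.03. The Nap group held 2 cultures, and how small a difference could have been called was not tested.

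To compare levels between genes, CPM was divided by exon length in kb. The lengths were not reduced for sequence shared with other genes, where reads may be lost or assigned to another gene. Windows were compared on either strand, so shared ones include those of antisense genes, such as the 1161 that TUBA1B shares with AC011603.2. Reads from such windows can still be unique hits. The share of windows found in no other gene ran from 46.8% for TUBB2A to 93.6% for TUBB4B, with 67.4% for TUBA1B. Per length, TUBA1B led in every group, at 273 ± 3.59 CPM per kb (SD, n = 3) in vehicle controls, where its range overlapped with that of TUBB at 263 ± 10.4. TUBB4B followed at 142 ± 2.51, TUBA1C at 45.6 ± 1.44, TUBG1 at 22.9 ± 1.76, TUBB6 at 13.6 ± 1.12 and TUBA1A at 9.84 ± 0.328 CPM per kb. TUBA4A at 2.30 ± 0.293 and TUBB2A at 1.5 ± 0.443 overlapped, and TUBB3 came last at 0.296 ± 0.0758. In P4 cultures the order of the 10 genes was the same as in vehicle controls, from TUBA1B at 157 ± 19.1 and TUBB at 121 ± 9.69 down to TUBB3 at 0.151 ± 0.0574 CPM per kb, with overlap between TUBB6 and TUBA1A and between TUBA4A and TUBB2A. The 10 genes took 0.259% ± 0.000698 of all counts in vehicle controls, 0.299% ± 0.0120 in controls, 0.303% ± 0.0107 in Nap cultures and 0.127% ± 0.0165 in P4 cultures (SD, n = 3, or 2 for Nap).

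Alpha and beta chains are used in equal number, so the summed levels per length of the listed genes were set side by side, as a description with no test. TUBB2B and TUBB4A are not in the beta sum. Summed alpha tubulin was 325 to 336 CPM per kb in vehicle controls and 167 to 209 in P4 cultures. Summed beta tubulin was 408 to 429 CPM per kb in vehicle controls and 188 to 222 in P4 cultures. The P4 mean was thus 0.580 of the vehicle control mean for alpha and 0.489 for beta. In controls the sums were 412 ± 31.6 for alpha and 447 ± 30.8 for beta, and in Nap cultures 411 ± 6.59 and 427 ± 15.6. The ratio of beta to alpha was highest in the vehicle controls, at 1.26 to 1.30, above the ranges of the controls (1.02 to 1.17), Nap (1.02 to 1.05) and P4 cultures (1.04 to 1.13). These ratios depend on the exon lengths used and on how much of each gene is shared with others.

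**Figure D3:**
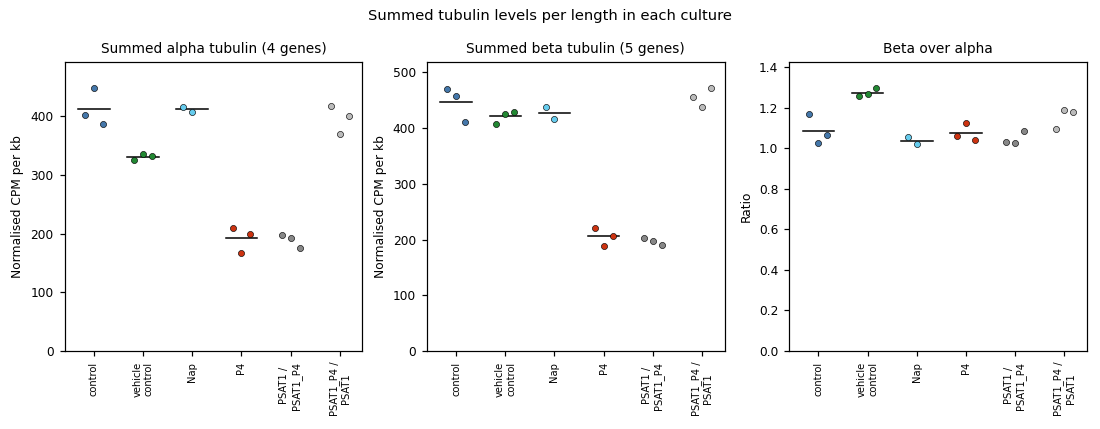
Summed normalised CPM per kb of the 4 alpha and the 5 beta tubulin genes, and the ratio of beta to alpha (vertical axes, linear from 0), 1 point per culture with a bar at the mean of labelled groups. The P4 cultures hold both sums near the 192 and 206 CPM per kb of their means, and the vehicle controls have the highest ratios.

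Within the listed beta tubulins, TUBB made up 61.7% to 63.1% of the summed level in vehicle controls and 58.8% to 59.3% in P4 cultures. TUBB4B made up 33.5% to 34.2% and 35.5% to 35.9%, and TUBB6 2.94% to 3.62% and 4.48% to 4.79%. The share of TUBB was thus lower in every P4 culture than in any vehicle control, control (61.3% to 61.9%) or Nap culture (61.6% to 63.4%), and that of TUBB6 higher than in any of them (3.40% to 3.74% in controls, 3.49% to 3.57% in Nap cultures). TUBB2A and TUBB3 stayed at or below 0.752% in every labelled culture. The beta genes TUBB2B and TUBB4A are not in this sum. TUBB2B was at 1.21 ± 0.286 CPM per kb in vehicle controls and 4.93 ± 1.39 in P4 cultures (SD, n = 3). TUBB4A was at 1.45 ± 0.0311 and 0.418 ± 0.0399 CPM per kb. Among the alpha tubulins, TUBA1B held 82.5% ± 0.310 in vehicle controls and 81.6% ± 1.25 in P4 cultures, ranges that overlap, and TUBA1C 13.8% ± 0.228 and 14.4% ± 0.695.

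**Figure D4:**
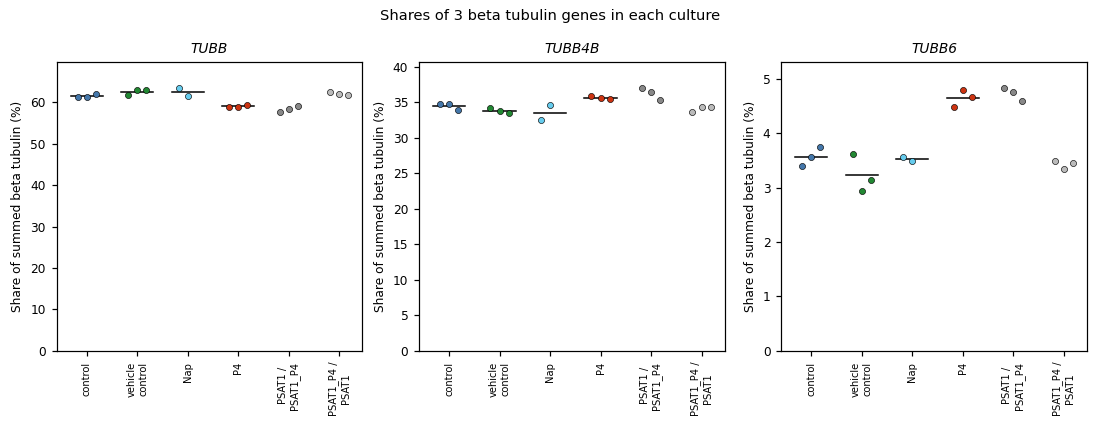
Share (%) of TUBB, TUBB4B and TUBB6 in the summed level per length of the listed beta tubulins (vertical axes, linear from 0, each with its own scale), 1 point per culture with a bar at the mean of labelled groups. In the P4 cultures TUBB lies at 58.8% to 59.3% and TUBB6 at 4.48% to 4.79%, apart from the other labelled groups.

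Not all tubulin genes moved the same way. Of 13 other tubulin genes, 5 had enough counts to be tested in P4 against vehicle control. Of these, 3 rose and 2 fell, where 26.6% of all genes were called higher and 26.5% lower. TUBE1, an epsilon tubulin needed for stable centrioles, rose from 45.5, 37.6 and 32.7 CPM in vehicle controls to 159, 186 and 165 CPM in P4 cultures. It was 4.43-fold higher with no overlap (log2 2.15 ± 0.10, edgeR adjusted p = 1.7e-08), and 4.49-fold higher than in Nap cultures. TUBB2B, a beta isotype enriched in brain like its neighbour TUBB2A, rose from 2.29, 2.28 and 3.37 CPM to 7.68, 13.8 and 10.98 CPM, 3.95-fold (log2 1.98 ± 0.24, edgeR adjusted p = 2.8e-05). The rise was 2.79-fold against Nap and 2.58-fold against control, and the vehicle controls lay below the controls (log2 -0.61 ± 0.22, edgeR adjusted p = 0.046). Of its windows, 49.8% are found in no other gene. TUBG2, the second gamma tubulin, rose 1.52-fold with overlapping groups (log2 0.60 ± 0.18, edgeR adjusted p = 0.012), a call lost without vehicle control replicate 2 or P4 replicate 3.

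TUBB4A, a beta isotype best known from brain, fell from 5.14, 4.93 and 5.05 CPM to 1.54, 1.29 and 1.53 CPM, 3.49-fold (log2 -1.80 ± 0.21, edgeR adjusted p = 1.8e-05). In controls it was at 2.97 to 3.33 CPM, below the vehicle controls (log2 0.68 ± 0.19, edgeR adjusted p = 0.012, lost with DESeq2 and without vehicle control replicate 3), and against Nap it fell by 1.12 on the log2 scale. TUBD1, the delta tubulin of centrioles, fell by 0.50 on the log2 scale (edgeR adjusted p = 0.021), and this call was lost in 4 of 13 alternatives, those without vehicle control replicate 1 or 2 or P4 replicate 2 or 3. Of the pseudogenes, TUBBP1 and TUBAP2 were tested and fell by 1.12 and 0.79 on the log2 scale (edgeR adjusted p = 3.5e-07 and 0.00022). TUBBP1 shares 213 windows with TUBB, and TUBAP2 174 with TUBA1B, and reads of the pseudogenes and of sequence variants of those genes cannot be told apart. The remaining 8 genes and 38 pseudogenes had at most 10 and 9 reads in any culture and were not tested.

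Genes that make, modify or use tubulin were read from lists, in P4 against vehicle control unless another reference is named, and the shares of all genes called there were 26.5% lower and 26.6% higher. Against Nap, 24.9% of all genes were called lower, and 4214 of 16987 higher. Against control, 28.0% were called lower, and 4461 of 16620 higher. Of 8 subunits of the CCT chaperonin, which folds new alpha and beta chains, 4 fell and 0 rose. CCT3 fell from 275 ± 6.84 to 189 ± 4.21 CPM (SD, n = 3; edgeR adjusted p = 9.8e-06) and CCT2 from 376 ± 13.3 to 287 ± 3.34 CPM, and the median over the list was -0.19. Against both Nap and control, 7 of the 8 fell, with medians of -0.44 and -0.45, and 7 of the 8 were also lower in vehicle control than in control, against 10.7% of all genes. Of 7 genes listed as tubulin folding cofactors or related to them, TBCD fell (log2 -0.62, edgeR adjusted p = 3.7e-05) and TBCEL rose (0.32, 0.006). Of 6 prefoldin subunits, PFDN6 fell (-0.92), PFDN4 and PFDN2 rose (0.60 and 0.46), and the median was 0.04. Against Nap and control, 3 fell, 1 rose and the medians were -0.26 and -0.25. PFDN4 was not called against either (edgeR adjusted p = 0.08 and 0.17) and was lower in vehicle control than in control (0.012). In the autoregulation list of 4 genes, CNOT11 fell by 0.38 and TTC5 by 0.36 on the log2 scale, SCAPER rose by 0.31 (edgeR adjusted p = 0.0048, 0.0076 and 0.025), and CNOT1 was not called at -0.10 ± 0.07. TTC5 missed the threshold against Nap and control (edgeR adjusted p = 0.055 and 0.056).

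Of 15 genes of the gamma tubulin ring complex and its recruiters, 6 fell and 4 rose, against 26.5% and 26.6% of all genes. PCNT and HAUS8 fell by 0.45 and 0.59 on the log2 scale, and AKAP9, a Golgi and centrosome scaffold, and MZT1 rose by 0.67 and 0.28. PCNT and MZT1 were called against neither Nap (log2 -0.07 and 0.01, edgeR adjusted p = 0.56 and 0.93) nor control (0.50 and 0.85), and in vehicle control against control PCNT was higher and MZT1 lower (0.00067 and 0.019). HAUS8 and AKAP9 were called in the same direction against both. Of 16 tested enzymes that modify tubulin, 6 rose and 5 fell, against the same shares, so neither of these counts is read as a result about its list. AGTPBP1, which trims glutamates from tubulin tails, rose from 58.3 ± 2.38 to 119 ± 3.54 CPM (edgeR adjusted p = 2.2e-07) and TTLL7, which adds them, rose by 0.51 on the log2 scale. VASH2, which removes the last tyrosine of alpha tubulin, fell from 22.9 ± 2.34 to 10.3 ± 2.44 CPM (edgeR adjusted p = 5e-05), and TTLL12 fell by 0.51.

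The widest range stood among 24 microtubule associated and plus-end proteins, of which 10 fell and 7 rose. MAP1B rose from 30.01 ± 2.13 to 327 ± 70.2 CPM (log2 3.41 ± 0.14, edgeR adjusted p = 3.7e-08), while the related MAP1A fell from 30.3 ± 2.76 to 6.03 ± 0.531 CPM (log2 -2.37 ± 0.12, edgeR adjusted p = 2.8e-08). MAP1A was higher in vehicle control than in control (log2 0.62, edgeR adjusted p = 0.00017), and in P4 against control its log2 fold change was -1.75. CLIP1, a plus-end tracking protein, rose by 1.13 and TPX2, a spindle assembly factor, fell by 0.49 on the log2 scale. Of 10 tested severing and depolymerising factors, 6 fell and 1 rose, with KATNAL1 falling by 0.74 and KATNA1 rising by 0.31 on the log2 scale, though KATNA1 was not called against Nap or control (edgeR adjusted p = 0.068 and 0.12). Proliferation genes were listed because dividing cells build spindles, and 10 of 10 fell, with a median of -0.65. MKI67 fell from 639.6 ± 90.2 to 257 ± 20.1 CPM and PCNA from 146 ± 8.37 to 74.2 ± 7.92 CPM. These genes also fell in 10 of 10 cases against Nap, compared with 24.9% of all genes, with a median of -0.81. In vehicle control against control, 5 of these 10 genes, PCNA among them, were lower, against 10.7% of all genes. There 1, MKI67, was higher, against 11.9% of all genes. The part of the proliferation genes in the fall of the tubulin genes was not tested.

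**Figure D5:**
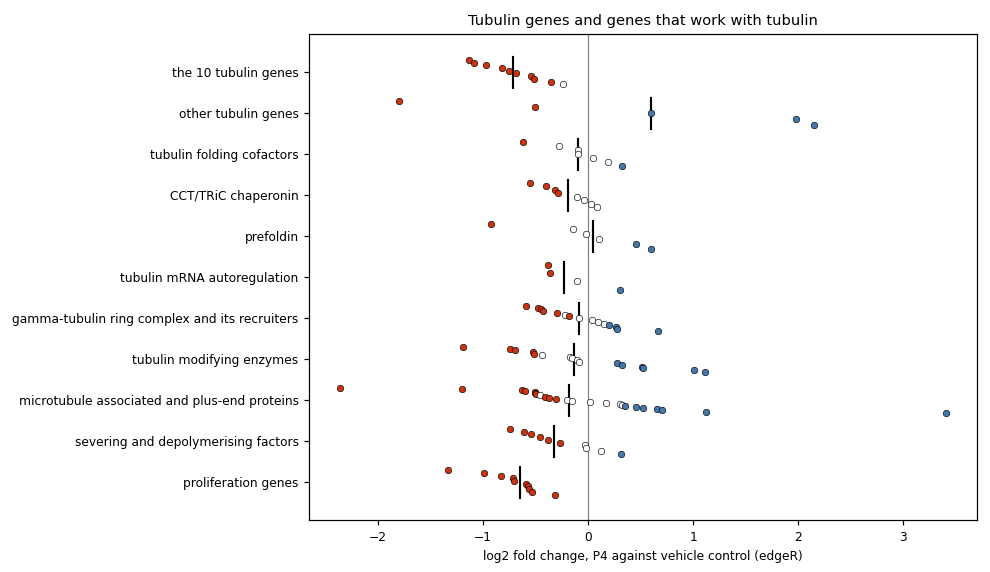
Log2 fold change in P4 against vehicle control (horizontal axis) of the 10 tubulin genes and of the genes in 10 lists; each point is a gene, red for called lower, blue for called higher and white for not called, with a bar at the median. The tubulin genes, median -0.72, and the proliferation genes, median -0.65, lie furthest to the left.

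For each of the 10 genes, the protein-coding gene outside the family whose log2(CPM + 1) was most alike over the 11 labelled cultures was found among 9423 genes with a mean of at least 10 CPM. The most alike were PCNA for TUBA1B (Pearson r = 0.995), ACLY for TUBA1C (0.992), PPIF for TUBB (0.996), HIST1H2BF for TUBB4B (0.993), HIST1H2BJ for TUBB6 (0.988) and PIMREG for TUBG1 (0.978). For the scarcer or more scattered genes they were IDH2 for TUBA1A (0.936), MTFR2 for TUBA4A (0.932), CCDC57 for TUBB3 (0.903) and PAFAH2 for TUBB2A (0.901). TUBA1B had 1143 genes with an r above 0.9, TUBB2A had 1 and TUBB3 had 2. The points share the separation of the P4 cultures from the other 8, so these values only describe likeness and carry no test.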

How the data were processed

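Single-end 75-base reads of stranded total RNA libraries were trimmed by the authors (Cutadapt), quality filtered and mapped with Subread, unique hits only, and featureCounts then gave counts per GENCODE 31 gene. Tool versions and the strand setting are not given in the sources used here, which leaves uncertain the counts of TUBA1A and TUBA1C, which overlap, and of TUBA1B and TUBB, which have antisense partners. The deposited values are raw counts without normalization for 17 cultures, with 0 columns left unused. Totals ranged from 4999521 to 19704493. GENCODE 29 (GRCh38) supplied the symbol, position and exon length of 58542 of the 60662 genes, and a list of symbols named 2054 more.

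For each of 5 comparisons, edgeR 4.0.16 in R 4.3.3 was fitted to the groups compared over all genes, with filterByExpr (minimum count 10), TMM and a robust quasi-likelihood test. Genes with a Benjamini-Hochberg adjusted p under 0.05 were called lower or higher, and errors of fold changes are SE. DESeq2 1.42.0, other normalizations and filters, all 4 groups in 1 fit, a replicate block and each replicate left out were alternatives. Replicates are named biological in the labels and differed by more than counting noise (chi-square per degree of freedom 1.51 to 21.6). Summed levels and shares are given as a description without a test; an exact two-sided permutation test of 3 against 3 cultures cannot go below p = 0.1. The fit was tested on simulated counts for P4 against vehicle control with a dispersion of 0.02 (16527 genes), in which 86 of 100 genes changed by 1 log2 unit and 100 of 100 changed by 2 were recovered. In it 10 unchanged genes were called. The data had a common dispersion of 0.00635 and 8774 of 16540 genes called, so the simulation does not match them in spread or in the share of changed genes.

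Named genes are the 10 tubulin genes, other tubulin loci with enough counts, the genes most like each of the 10, the markers, and per list the 2 called genes of lowest adjusted p in either direction (P4 against vehicle control). CNOT1 and KATNA1 complete short counts. A result that the rule would name is not reported here. The members and lists were chosen with earlier results of these data known.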

Additional observations from a re-analysis of the deposited data

Results flagged for a closer look

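The 6 cultures with contradictory labels entered no comparison, and in them some tubulin genes lay above every untreated control. In the 3 cultures titled PSAT1 with a column named PSAT1_P4, the median of TUBE1 was 182 CPM against a highest control of 37.5 CPM. TUBB2B had a median of 10.1 CPM there against a highest control of 4.39, and TUBG2 one of 14.0 CPM against 9.56. TUBB3 had a median of 0.786 CPM against a highest control of 0.538, and in the 3 cultures titled PSAT1_P4 with a column named PSAT1 its median was 0.664 CPM, both on 13 reads or fewer per culture. No test was run on these cultures.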

How the results depend on the processing

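No called tubulin gene reversed its direction in any alternative. TUBB2A, not called in vehicle control against control, ranged from -0.32 to 0.023 on the log2 scale there with each replicate left out, the last without vehicle control replicate 3. The number of the 10 genes called stayed within 1.5 times the reported one in P4 against vehicle control (6 to 9, with 6 by DESeq2), against control (7 to 8) and against Nap (7 to 8), and was 0 throughout in Nap against control. In vehicle control against control it was 2 with all 4 groups in the fit and between 1 and 4 with each replicate left out; the cause was not tested.

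The replicate numbers in the labels showed no pairing where 3 pairs or a P4 group were compared, as deviations of same-numbered cultures correlated between -0.0946 and 0.0752. For the 2 pairs of Nap and control they correlated at 0.307 and 0.351, so pairing is not settled there. The fit with the replicate block called 9 of the 10 genes in P4 against vehicle control, 7 against control, 7 against Nap, 4 in vehicle control against control and 0 in Nap against control. Over all genes it called 42 in Nap against control, where the fit without it called 0.

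Without division by length, the share of TUBB in the summed beta level was 71.0% in vehicle controls and 67.4% in P4 cultures, that of TUBB4B 24.1% and 25.6%, that of TUBB6 4.50% and 6.51%, that of TUBB2A 0.210% and 0.346% and that of TUBB3 0.105% and 0.112%. The direction between the groups was the same in each, and the move follows from the unequal lengths. The ratios of summed alpha and beta levels stayed between 0.555 and 0.617 and between 0.470 and 0.509 with each replicate left out.

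Over all genes, those called lower by more than 1 log2 unit in P4 against vehicle control numbered 1162, and 662 with at least 10 counts in every sample. Calls in P4 against Nap numbered 8446, and 5606 and 5502 without either Nap replicate. Those in vehicle control against control numbered 3763, and 2038 and 1908 without vehicle control replicate 2 or 3. TUBB3 rested on 22 reads or fewer in any labelled culture, and depth limits what can be said of it, as do the windows it shares with AC092143.1.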

Other observations

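The cultures without a condition fell into separate sets for several tubulin genes. In those titled PSAT1 with a column named PSAT1_P4, TUBB was at 393, 386 and 377 CPM, TUBA1B at 581, 566 and 504 CPM and TUBE1 at 177, 182 and 187 CPM. In those titled PSAT1_P4 with a column named PSAT1, TUBB was at 957, 913 and 977 CPM, TUBA1B at 1237, 1089.7 and 1192 CPM and TUBE1 at 35.2, 39.1 and 35.7 CPM. The labels do not settle which set received P4, and no condition was read from these values. The 10 genes together took 0.114% to 0.126% of all counts in the first set and 0.3002% to 0.317% in the second. TUBB2A did not separate the sets as clearly, at 1.57, 1.57 and 2.74 CPM against 3.06, 2.06 and 3.76 CPM.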
